A study of Mus musculus with 12 samples.

Results

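The genes described here are 34 genes of the Schwann cell lineage, taken from a fixed list of neural crest, Schwann cell precursor, repair Schwann cell and myelin genes. All 34 were found among the 54532 genes counted in each of 12 mouse tumour libraries. The tumours were malignant peripheral nerve sheath tumours (MPNSTs), sarcomas of the nerve sheath, raised in wild-type mice of the strain given as C57B/6. An adenovirus carried a Cas9 system against Nf1 and a gene spelled Cdk2na in the labels, so every group shares this induced lesion, and the labels do not name the injection site, the promoter of the virus or the cells it entered. The vehicle group holds 4 tumours from mice gavaged daily with the vehicle and collected at the terminal time point. The regressing group holds 4 tumours from mice gavaged daily with palbociclib, an inhibitor of CDK4 and CDK6, at 100 mg/kg and mirdametinib, a MEK inhibitor, at 1 mg/kg, collected during regression. The terminal combination group holds 4 tumours on the same drugs and doses, collected at the terminal time point. The study's design text speaks of sensitive and resistant tumours, and the labels do not tie those words to single libraries. Sex and age of the mice are not given in the sources used here, nor whether the 4 tumours of a group came from separate mice, so the tests measure the spread between these tumours.

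Schwann cells arise from the neural crest, a migratory embryonic cell population. Crest cells become Schwann cell precursors and then immature Schwann cells, which either wrap axons in myelin or remain non-myelinating. After nerve injury Schwann cells shut down myelin genes, take up a repair state and secrete trophic factors for axons. SOX10 is needed at every one of these steps, EGR2 drives the myelin genes, and SOX2 and JUN act against myelination. Nf1 loss in this lineage is the founding lesion of many nerve sheath tumours, and MPNSTs are known for partial or complete loss of Schwann cell markers.

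Libraries held 13194699 to 22639625 counts, and a count of 0 in a library allows a level of up to 0.133 to 0.227 CPM, counting error only. CPM, the usual depth-adjusted unit of counts, compare 1 gene across tumours. To compare levels between genes they were divided by exon length and are then given as RPKM. In bulk tumour RNA, fewer cells of a type and less RNA per cell cannot be told apart. By mean RPKM over the 12 tumours the most abundant of the 34 genes were Pmp22 at 39.1, Nes at 32.4, Gap43 at 27.1, Cnp at 14.5 and Sox9 at 12.2. At the other end stood Pax3 at 0.00718, Shh at 0.0136, Gjb1 at 0.0331 and Foxd3 at 0.0378. Sox10 and S100b, the standard markers of the labelled tissue's lineage, stood at 0.194 and 2.53 RPKM over all tumours and at 0.0112 and 0.672 RPKM in the vehicle tumours, so the defining markers of the lineage were low there. Of the 34 genes, 26 passed the filter on low counts and were tested. The 8 that did not pass, with their summed counts over all libraries, were Cdh19 with 262, Gfap with 105, Pou3f1 with 71, Fabp7 with 36, Foxd3 with 19, Gjb1 with 12, Pax3 with 9 and Shh with 8. Sox10 passed only through treated tumours, because no vehicle library reached the filter's level of 0.553 CPM.

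The comparison of regressing with vehicle tumours sets tumours collected during regression on the drug pair against tumours collected at the terminal time point without it, so drug and harvest stage cannot be told apart. Sox10, Mbp and Pmp22 stood higher in every regressing tumour than in any vehicle tumour, and Ncam1 and Artn stood lower in every regressing tumour. The edgeR quasi-likelihood test with Benjamini-Hochberg adjustment called none of the 26 tested genes and none of all 15650 genes tested, a share of 0%. At an unadjusted p under 0.05, 5 of the 26 were higher (Sox10, S100b, Bdnf, Mbp and Pmp22) and 7 lower (Sox5, Nes, Gap43, Ncam1, Artn, Gdnf and Gldn), where 6.72% of all genes were higher and 6.03% lower. Left out in turn, single libraries moved the count of lower genes to 3 without regressing 2, 3 or 4 and to 4 without regressing 1 or vehicle 2, and the count of higher genes to 3 without vehicle 3 or regressing 3. Groups did not overlap for 3 of the 26 genes higher and 2 lower, beside 3.5% and 4.13% of all genes. Without vehicle 4 or without regressing 4 the higher count was 5, and without vehicle 1 the lower count was 4. The filter was run again in each such run, so these counts and those by p may include listed genes outside the 26. DESeq2, the alternative test, called Sox10 higher (adjusted p = 0.027) and Ncam1 (adjusted p = 0.0113) and Artn (adjusted p = 0.0359) lower, and it called 2.26% of all its genes higher and 0.913% lower. Because Sox10 passed the filter only through treated tumours and rests on 3 vehicle counts, its call and its place among the higher genes support nothing further. These DESeq2 calls depended on single libraries: none of the 26 genes was called by it without vehicle 3, without regressing 1, without regressing 4, or without regressing 1 and 4 together, and only Ncam1 without vehicle 2 or without regressing 2. Without vehicle 1 it called 6, namely Sox10, S100b, Bdnf and Mbp higher and Artn and Gap43 lower. In the 8 libraries whose titles lack the unexplained ending FFT, the log2 differences were -1.34 for Ncam1, -1.39 for Artn, 1.84 for Mbp and 1.32 for Pmp22, against -1.71, -2.16, 1.49 and 1.07 in all 12, and the FFT libraries (2 vehicle, 1 regressing, 1 terminal combination) were too few for a value of their own. The median fitted log2 difference of the 26 genes was -0.19, and that of all genes was -0.017.

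**Figure D1:**
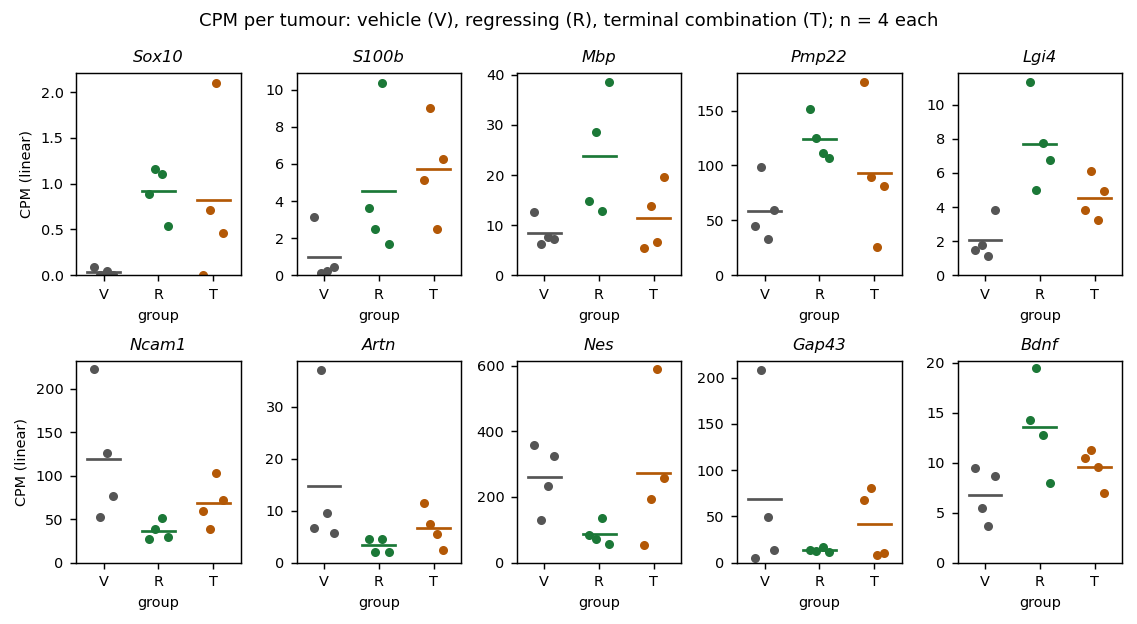
CPM on a linear axis from 0 for 10 lineage genes in each tumour (points) with the group mean (line), vehicle (V), regressing (R) and terminal combination (T), 4 tumours each. The regressing points of Sox10, Mbp, Pmp22 and Lgi4 lie above all vehicle points, those of Ncam1 and Artn lie below them, and the terminal combination points spread across both.

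Sox10, the transcription factor (chr15:79154908-79165240, minus strand, GRCm38), had 2, 0, 1 and 0 counts in vehicle 1 to 4, which is 0.0855, 0, 0.0508 and 0 CPM. In regressing 1 to 4 it had 14, 20, 25 and 7 counts, or 0.892, 1.16, 1.11 and 0.54 CPM. In terminal combination 1 to 4 it had 0, 12, 43 and 8 counts, or 0, 0.715, 2.1 and 0.456 CPM. All 4 regressing tumours and 3 of 4 terminal tumours lay above every vehicle tumour, and terminal combination 1 lay with vehicle. Summed over a group, Sox10 had 3 counts in vehicle, 66 in the regressing and 63 in the terminal tumours, 43 of these 63 in terminal combination 3. Because it passed the filter only through treated tumours, these sums describe the counts and support nothing further. The adjusted p of the edgeR test was 0.24 for regressing and 0.819 for terminal combination against vehicle. Even the highest level, in terminal combination 3, was 2.1 CPM.

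S100b, a calcium-binding protein used as the routine stain for Schwann cell tumours, stood at 3.12, 0.143, 0.254 and 0.467 CPM in vehicle 1 to 4. It stood at 3.63, 2.5, 10.4 and 1.7 CPM in the regressing tumours and at 5.12, 8.99, 2.49 and 6.28 CPM in the terminal combination tumours. Vehicle 1 reached the range of the treated tumours, and the other 3 vehicle tumours lay below all 8 treated ones. The fitted log2 difference from vehicle was 2.16 (SE 0.90, adjusted p = 0.352) for regressing and 2.48 (SE 0.91, adjusted p = 0.819) for terminal combination tumours. Without vehicle 1 the latter was 4.27, and the terminal and vehicle groups then did not overlap.

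Among the neural crest transcription factors Foxd3 and Pax3 were close to 0 in every tumour, at no more than 0.29 and 0.255 CPM, while Sox9 was present in all. Sox9, which specifies the crest and also cartilage, stood at 48.0 ± 20.4 CPM (SD, n = 4) in vehicle, 39.8 ± 15.8 (SD, n = 4) in regressing and 63.6 ± 30.9 (SD, n = 4) in terminal combination tumours. The groups overlapped, and the terminal tumours were 0.67 higher than the regressing ones on the log2 scale (SE 0.40, adjusted p = 0.747). Tfap2a, a factor of early crest, ranged from 1.28 to 56 CPM in vehicle, from 1.82 to 15.3 in regressing and from 0.391 to 29.4 in terminal combination tumours. Sox5 stood at 0.855, 6.22, 12.3 and 0.525 CPM in vehicle 1 to 4, at 0.523 to 1.7 CPM in the regressing and at 1.42 to 3.37 CPM in the terminal tumours. Its vehicle tumours formed a low and a high pair, so the log2 difference of -2.11 (SE 0.85, adjusted p = 0.336) between regressing and vehicle became -1.12 without vehicle 3.

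Of the 5 genes of precursor and immature Schwann cells 3 were tested, and Nes had the smallest edgeR p between regressing and vehicle tumours. Nes, which encodes the intermediate filament nestin, stood at 359, 130, 235 and 325 CPM in vehicle 1 to 4. It stood at 84.8, 71, 137 and 56.2 CPM in the regressing tumours and at 54.3, 194, 589 and 257 CPM in the terminal combination tumours. Regressing 3 lay just above vehicle 2, and all other regressing tumours lay below all vehicle tumours. The log2 difference was -1.59 (SE 0.59, adjusted p = 0.303) for regressing against vehicle and 0.061 (SE 0.57, adjusted p = 0.993) for terminal combination against vehicle. Cdh2, the gene of N-cadherin, stood at 90.7 ± 63.2 CPM (SD, n = 4) in vehicle, 41.1 ± 23.7 (SD, n = 4) in regressing and 95.9 ± 59.5 (SD, n = 4) in terminal combination tumours. Its log2 difference between terminal combination and regressing tumours was 1.22 (SE 0.70, adjusted p = 0.742). Cdh19, a cadherin typical of Schwann cell precursors, stood at 0.171, 0.429, 0 and 0.175 CPM in vehicle and at 0.51, 1.1, 0.133 and 0.463 CPM in regressing tumours. In the terminal combination tumours it stood at 0.307, 1.85, 8.31 and 0.342 CPM, so that terminal combination 3 held 170 of the 262 counts in all libraries. That tumour also had the highest Sox10, Sox9 and Nes. Fabp7, a fatty acid binding protein of glial precursors, did not exceed 0.399 CPM.

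Sox2, the transcription factor of immature Schwann cells, was at or near 0 in some tumours of every group and abundant in others. It had no count in vehicle 1 and 4, which allows up to 0.133 and 0.183 CPM, and stood at 72.8 CPM in vehicle 2 and 20.7 CPM in vehicle 3. In the regressing tumours it stood at 6.44, 0.116, 3.46 and 0.0771 CPM, and in the terminal combination tumours at 7.93, 47.2, 0.0978 and 12.9 CPM. Gldn encodes gliomedin, which Schwann cells secrete to cluster sodium channels at nodes, and it was high in the same few tumours. It stood at 0.599, 88, 11.3 and 0 CPM in vehicle 1 to 4, between 0.319 and 1.16 CPM in the regressing tumours and at 0.205, 40.5, 0.293 and 2.68 CPM in the terminal combination tumours. Vehicle 2, terminal combination 2 and vehicle 3 ranked highest for both genes. For Gldn the log2 difference between regressing and vehicle tumours was -5.12 (SE 2.1, adjusted p = 0.348), and without vehicle 2 it was -2.47. For Sox2 it was -3.20 (SE 2.02, adjusted p = 0.523).

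The stretches of 250 bases before the annotated starts of Sox2 and Gldn (RefSeq promoter table, GRCm38.p6) are shown because these genes were high in the same tumours. They lie at chr3:34649745-34649994 and chr9:54286236-54286485, both on the plus strand, and hold no annotated exon. Of the 34 genes, 24 were in the table, with 45 starts. Promoters were searched on both strands for ACAAAG and ACAATG (SOX family), GCCNNNGGC (TFAP2 family) and GTGGGNG (EGR family), and capitals mark the matches. The Sox2 stretch holds ACAAAG with its left end at position -206 from the start, as 16.5% of all 32851 promoters do somewhere, and the Gldn stretch holds a GCCNNNGGC match at position -51, as 13.7% do. A match describes letters and not a bound site.
Sox2: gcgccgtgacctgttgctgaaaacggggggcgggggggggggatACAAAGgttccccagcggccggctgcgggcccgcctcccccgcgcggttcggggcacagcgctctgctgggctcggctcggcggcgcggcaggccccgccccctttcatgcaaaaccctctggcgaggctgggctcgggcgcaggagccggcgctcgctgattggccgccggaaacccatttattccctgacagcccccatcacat
Gldn: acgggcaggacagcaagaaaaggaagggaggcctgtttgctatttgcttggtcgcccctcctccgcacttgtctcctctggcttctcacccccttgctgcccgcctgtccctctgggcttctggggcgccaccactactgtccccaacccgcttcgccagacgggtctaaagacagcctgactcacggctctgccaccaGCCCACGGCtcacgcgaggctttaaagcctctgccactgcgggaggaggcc

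**Figure D2:**
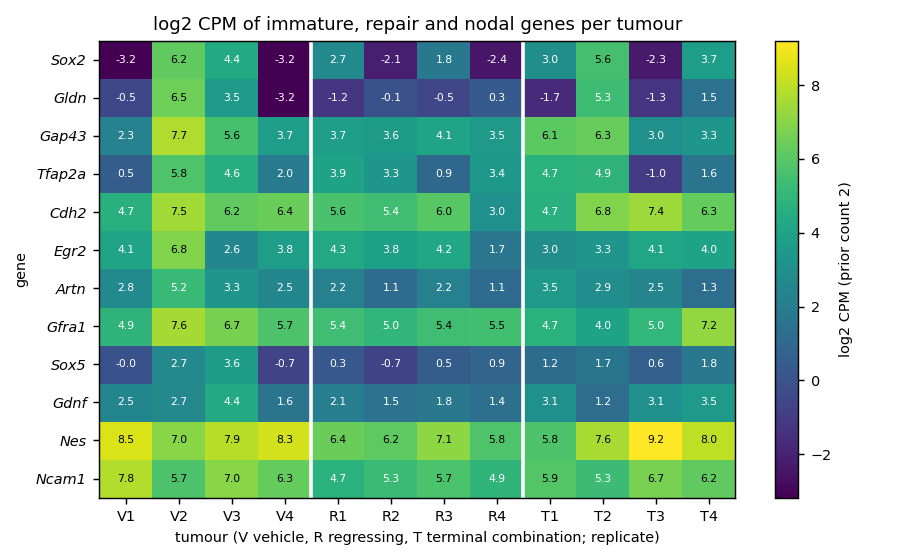
Heat map of log2 CPM (prior count 2, colour scale and printed values) for 12 immature, crest, repair, adhesion and nodal genes (rows) in the 12 tumours (columns; V vehicle, R regressing, T terminal combination, with the replicate number). Sox2 and Gldn are high in V2, V3 and T2, V2 is the highest column for 8 of the 12 genes, and Nes and Ncam1 are low across the R columns. The rows were chosen after their values were seen and include all 8 of the 26 tested genes that were highest in V2. The count of 8 of 12 therefore follows from that choice, and V2 was highest for 10.4% of all genes.

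Vehicle 2 was the highest library for 8 of the 26 tested genes (30.8%), namely Tfap2a, Cdh2, Sox2, Gap43, Artn, Gfra1, Egr2 and Gldn, and for 10.4% of all genes. No other library was highest for more than 3 of the 26. In vehicle 2 Sox10 had no count, and S100b was at its lowest of all tumours. Its title carries the unexplained ending FFT, as do those of vehicle 1, regressing 1 and terminal combination 1.

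Of the adhesion and non-myelinating genes, Ncam1 and Gap43 differed most between regressing and vehicle tumours. Ncam1 (chr9:49502136-49798925, minus strand), the neural cell adhesion molecule, stood at 223, 52.7, 127 and 76.4 CPM in vehicle 1 to 4. It stood at 26.6, 38.1, 51.8 and 29.9 CPM in the regressing tumours and at 59.5, 39.1, 103 and 71.5 CPM in the terminal combination tumours. Regressing and vehicle tumours did not overlap, although regressing 3 lay only just below vehicle 2, and without the filter on low counts the slightly different scaling made them overlap. The terminal tumours lay across both ranges. The log2 difference was -1.71 for regressing against vehicle (SE 0.44, adjusted p = 0.236) and 0.90 for terminal combination against regressing tumours (SE 0.43, adjusted p = 0.715). Gap43, a growth cone protein that repair Schwann cells also make, stood at 4.83, 208, 49 and 13.3 CPM in vehicle 1 to 4 and within 11.1 to 16.5 CPM in the regressing tumours. In the terminal combination tumours it stood at 67.8, 81.1, 8.12 and 9.98 CPM. The regressing tumours lay inside the vehicle range, and the log2 difference of -2.38 (SE 1.05, adjusted p = 0.375) became -0.76 without vehicle 2. Ngfr, the low-affinity neurotrophin receptor, ranged from 0.727 to 14.5 CPM, L1cam, an axon-glia adhesion molecule, from 0.429 to 7.12 CPM, and Scn7a, a sodium channel family member of non-myelinating Schwann cells, from 1.64 to 44.6 CPM. For these genes the 3 groups overlapped and the smallest adjusted p was 0.783. Gfap, the filament of non-myelinating and repair Schwann cells, exceeded 1 CPM only in vehicle 2 (1.21) and vehicle 3 (2.49).

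Ncam1 and Nes are also made by muscle precursors, so 8 markers of those cells were examined. Of these 7 were tested, and all 7 had a negative log2 difference between regressing and vehicle tumours. Of the 7, 2 had an unadjusted p under 0.05 by edgeR, and none was called by edgeR or DESeq2 or had groups apart. Their summed level ranged from 106 to 2267 CPM in vehicle, 17.2 to 248 in regressing and 15.6 to 869 CPM in terminal combination tumours. The highest sum was in vehicle 1, which also held the highest Ncam1, and the second highest in terminal combination 3, which held the highest Nes. In vehicle 2, where Ncam1 was 52.7 and Nes 130 CPM, Myh3, Myh8, Myf5 and Pax7 had no count, Myod1 and Myog stood at 0.143 and 0.286 CPM, Chrna1 stood at 15.7 CPM, and Megf10 was at its highest of all tumours with 90.1 CPM. The part of these cells in the Ncam1 and Nes values was not tested.

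Among the trophic factors of repair Schwann cells, Artn had regressing and vehicle tumours that did not overlap, while those of Gdnf, Bdnf and Gfra1 overlapped. Artn (chr4:117926162-117929763, minus strand) encodes artemin, a GDNF family ligand for sensory and sympathetic neurons. It stood at 6.63, 37.1, 9.56 and 5.6 CPM in vehicle 1 to 4, at 4.46, 2.09, 4.48 and 2.08 CPM in the regressing and at 11.5, 7.33, 5.43 and 2.34 CPM in the terminal combination tumours. Regressing and vehicle tumours did not overlap, and terminal combination 4 was the only tumour outside the regressing group under 5 CPM. The log2 difference between regressing and vehicle tumours was -2.16 (SE 0.67, adjusted p = 0.265), and without vehicle 2 it was -1.14. Gdnf stood at 5.52, 6.22, 20.9 and 2.86 CPM in vehicle, at 2.55 to 4.21 CPM in the regressing and at 2.26 to 11 CPM in the terminal combination tumours, with a log2 difference of -1.47 (SE 0.60, adjusted p = 0.349) between regressing and vehicle. Bdnf, a neurotrophin, stood at 9.5, 5.43, 3.66 and 8.64 CPM in vehicle, at 14.3, 19.5, 12.8 and 7.94 CPM in regressing and at 10.4, 11.3, 9.58 and 6.96 CPM in terminal combination tumours. Of the regressing tumours only regressing 4 lay within the vehicle range, and the log2 difference was 1.00 (SE 0.35, adjusted p = 0.282). Gfra1, the receptor subunit that binds GDNF, ranged from 29.2 to 188 CPM in vehicle, from 31.5 to 44.4 in regressing and from 15.9 to 148 CPM in terminal combination tumours. Shh, a morphogen that repair Schwann cells switch on, had 8 counts in regressing 2 (0.465 CPM) and none in the other 11 tumours.

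The 250 bases before the start of Artn (chr4:117929764-117930013, minus strand, GRCm38.p6, no annotated exon) are shown because its regressing and vehicle tumours did not overlap. The stretch holds a GTGGGNG match at position -201, found in 28.1% of all promoters, and a GCCNNNGGC match at position -28.
Artn: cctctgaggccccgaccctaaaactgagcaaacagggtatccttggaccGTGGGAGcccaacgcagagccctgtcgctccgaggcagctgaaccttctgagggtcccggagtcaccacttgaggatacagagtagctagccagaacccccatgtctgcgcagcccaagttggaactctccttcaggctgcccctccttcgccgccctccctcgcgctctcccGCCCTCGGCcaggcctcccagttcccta

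Of the factors that switch on myelination, Pou3f1 stayed at or under 0.759 CPM in every tumour. Egr2, which is also an immediate early gene in many cells, stood at 16.7, 115, 5.8 and 13.5 CPM in vehicle 1 to 4. It stood at 19.5, 13.7, 18.2 and 3.09 CPM in the regressing and at 7.63, 9.53, 17.5 and 16.2 CPM in the terminal combination tumours. Vehicle 2 alone lay outside the range of the treated tumours. The log2 difference between terminal combination and vehicle tumours was -1.56 (SE 0.84, adjusted p = 0.838), and without vehicle 2 it was 0.082, so its sign rests on that library.

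Of the 9 structural genes of myelin and its contacts, 8 were tested, and Mbp and Pmp22 stood higher in all regressing tumours than in any vehicle tumour. Mbp, the basic protein that compacts the cytoplasmic faces of myelin, stood at 12.6, 6.29, 7.63 and 7.23 CPM in vehicle 1 to 4 and at 14.8, 28.6, 12.7 and 38.6 CPM in the regressing tumours. Regressing 3 and vehicle 1 differed by little. In the terminal combination tumours Mbp stood at 5.37, 13.9, 6.55 and 19.6 CPM, with 1 tumour below the vehicle range, 1 inside it and 2 inside the regressing range. The log2 difference was 1.49 for regressing against vehicle (SE 0.47, adjusted p = 0.272), 0.42 for terminal combination against vehicle (SE 0.47, adjusted p = 0.92) and -1.06 for terminal combination against regressing tumours (SE 0.47, adjusted p = 0.707). Other cells than myelinating glia also transcribe the long Mbp locus, and gene counts do not separate its transcripts. Pmp22 (chr11:63128982-63159547, plus strand), a membrane protein of compact myelin that fibroblasts and epithelia also make, stood at 44.7, 98.8, 32.6 and 59.3 CPM in vehicle and at 151, 125, 112 and 107 CPM in regressing tumours. In the terminal combination tumours it stood at 176, 89.6, 25.6 and 81.6 CPM, which spans more than the range of the other 8 tumours. The log2 difference between regressing and vehicle tumours was 1.07 (SE 0.48, adjusted p = 0.381).

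The other structural genes did not separate the groups. Cnp, a phosphodiesterase of noncompact myelin that is also common outside glia, stood at 53.6 ± 12.6 CPM (SD, n = 4) in vehicle, 54.9 ± 10.3 (SD, n = 4) in regressing and 49.5 ± 13.4 (SD, n = 4) in terminal combination tumours. Prx, the periaxin of mature myelinating Schwann cells, stood at 6.82 ± 2.77 (SD, n = 4), 7.29 ± 3.21 (SD, n = 4) and 8.07 ± 1.55 CPM (SD, n = 4). Mag, the adhesion protein of the innermost myelin layer, ranged from 0.559 to 3.48 CPM over all tumours. Mal, a raft protein of myelin, and Cadm4, the glial adhesion molecule of the internode, had means of 1.07 and 0.777 CPM in vehicle, 2.57 and 1.82 CPM in regressing and 3.22 and 1.87 CPM in terminal combination tumours, with ranges that overlapped. Gjb1, the connexin of noncompact myelin, had 12 counts in all and did not exceed 0.348 CPM. By mean RPKM in the regressing tumours, where Mbp was highest, Pmp22 stood at 52.6, Cnp at 15.1, Mbp at 2.8, Prx at 1.31 and Mag at 0.55.

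Pmp22 has 4 starts in the RefSeq promoter table, and gene counts do not say which of them was used. Stretches of 250 bases before a pair of them are shown, chr11:63128732-63128981 (start A) and chr11:63132319-63132568 (start B), both on the plus strand of GRCm38.p6 and free of annotated exons, because Pmp22 is the most abundant of the 34 genes. The stretch before start A has a GC content of 48.8% and no match to the 4 motifs. The stretch before start B has a GC content of 64.8% and a GCCNNNGGC match at position -162.
Pmp22 start A: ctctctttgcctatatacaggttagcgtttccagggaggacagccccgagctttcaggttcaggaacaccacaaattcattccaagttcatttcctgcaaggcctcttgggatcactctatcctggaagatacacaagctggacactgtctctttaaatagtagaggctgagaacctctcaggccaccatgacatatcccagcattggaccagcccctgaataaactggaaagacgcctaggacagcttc
Pmp22 start B: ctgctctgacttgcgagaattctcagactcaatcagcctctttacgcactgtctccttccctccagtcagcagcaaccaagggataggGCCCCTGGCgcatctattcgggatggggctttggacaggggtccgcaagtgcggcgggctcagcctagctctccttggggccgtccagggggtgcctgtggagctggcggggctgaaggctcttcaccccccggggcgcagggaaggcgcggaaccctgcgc

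**Figure D3:**
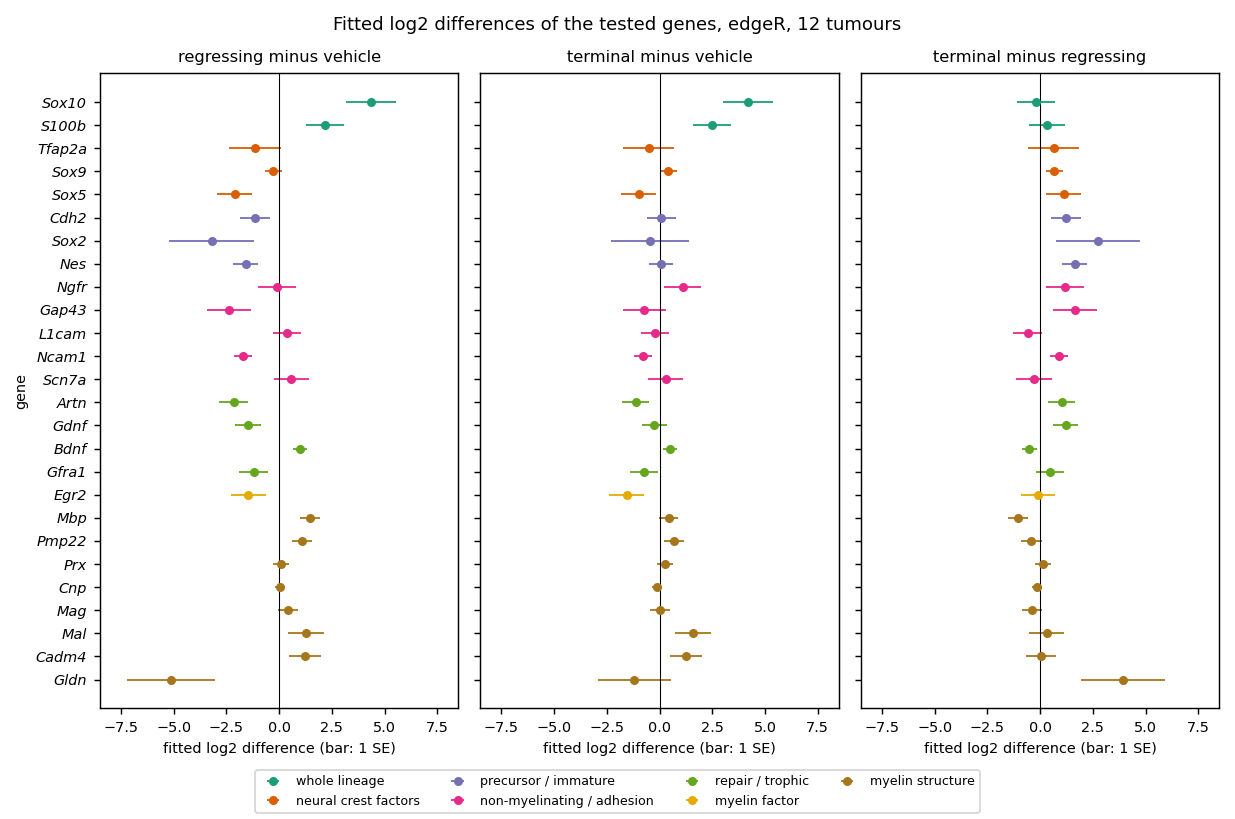
Fitted log2 difference (point) and 1 approximate SE (bar) from the edgeR model of all 12 tumours for the 26 tested genes, coloured by stage class. Panels show regressing minus vehicle, terminal combination minus vehicle and terminal combination minus regressing. The SE was derived from the edgeR test statistic and not from the fit itself. None passed an adjusted p of 0.05, and the points for Sox10 against vehicle rest on 3 vehicle counts, so their size depends on the model's prior count.

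In terminal combination against vehicle tumours, edgeR called none of the 26 genes and none of all genes tested. At an unadjusted p under 0.05, 2 of the 26 were higher (Sox10 and S100b) and 0 lower, beside 3.35% and 2.59% of all genes. None of the 26 had groups that did not overlap, where 2.5% of all genes did, and DESeq2 called none of them and 0.0902% of all genes. In runs with a library left out the filter was run again, so listed genes outside the 26 could be counted. With terminal combination 1 left out the count of higher genes was 4. With vehicle 2, vehicle 3 or terminal combination 2, 3 or 4 left out the count of lower genes was 1. With vehicle 1, vehicle 2 or terminal combination 1, 3 or 4 left out 1 gene had groups apart. Without vehicle 2 that gene was Cdh19, outside the 26. It stood at 0.307 CPM or more in terminal combination tumours and at up to 0.175 CPM in vehicle 1, 3 and 4. With terminal combination 1 left out DESeq2 called Sox10, and with vehicle 1 left out it called S100b. Because Sox10 passed the filter only through treated tumours, its place among the higher genes and its call support nothing further here either. The median log2 difference of the 26 genes was 0.048.

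In terminal combination against regressing tumours, edgeR again called none of the 26 genes or of all genes. At an unadjusted p under 0.05 Nes was higher and Mbp lower, where 4.12% of all genes were higher and 2.9% lower. Groups overlapped for all 26 genes, while 3.9% of all genes had groups apart, and DESeq2 called none of the 26 and 0.328% of all genes. Nes was called by DESeq2 with terminal combination 1 left out, and neither Nes nor Mbp kept an unadjusted p under 0.05 by edgeR with terminal combination 3 left out. The count of higher genes was 2 or 3 without any 1 of the vehicle tumours, regressing 3 or terminal combination 1, 2 or 4, and the count of lower genes was 0 without vehicle 3 or 4, regressing 2 or 4 or terminal combination 1, 2 or 3. Up to 2 of the listed genes that passed the filter in each run had groups apart. This held without regressing 3 or 4 or without any 1 of the terminal combination tumours. The 2 comparisons with regressing tumours share those 4 libraries, and those with vehicle share the 4 vehicle libraries. Side by side, the log2 differences from vehicle in regressing and in terminal combination tumours were -1.71 and -0.81 for Ncam1, -2.16 and -1.14 for Artn, 1.49 and 0.42 for Mbp and 1.07 and 0.67 for Pmp22. An edgeR test for any difference among the 3 groups called none of all genes, with 9.46% of all genes at an unadjusted p under 0.05.

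Of 36 other genes of the lineage, 28 were tested, and edgeR called none in any comparison. In regressing against vehicle tumours 3 had an unadjusted p under 0.05 with a higher level and 4 with a lower one, beside 6.72% and 6.03% of all genes, and the DESeq2 calls included Lgi4 (higher), Erbb3 and Runx2 (both lower). Of 14 further myelin genes 10 were tested. Nab2, a co-regulator of EGR2, stood at 110 ± 49.6 CPM (SD, n = 4) in vehicle and 72.8 ± 13.7 (SD, n = 4) in regressing tumours, which overlapped. Cldn19, a claudin of myelin's tight junctions, and Ncmap, a peripheral myelin protein, were too low to be tested. Cldn19 had up to 0.0855 CPM in vehicle and 0.222 to 1.15 CPM in regressing tumours, and Ncmap had up to 0.299 and 0.355 to 1.16 CPM, so their groups did not overlap. These values rest on at most 18 counts of Cldn19 and 15 of Ncmap in any library. Fa2h and Ugt8a, the other untested genes of this list, had groups that overlapped. The share of groups apart among all untested genes was not measured, so nothing further is drawn from Cldn19 and Ncmap.

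Of 12 genes of Schwann cell identity and signalling 10 were tested. Lgi4, a secreted protein through which Schwann cells start myelination, stood at 1.5, 1.79, 1.12 and 3.85 CPM in vehicle 1 to 4. It stood at 11.3, 4.99, 7.76 and 6.79 CPM in the regressing tumours and at 3.84, 6.14, 3.23 and 4.96 CPM in the terminal combination tumours. The regressing tumours lay above all vehicle tumours, and the log2 difference was 1.90 (SE 0.42, edgeR adjusted p = 0.236, DESeq2 adjusted p = 0.00151). Erbb3, the neuregulin receptor of Schwann cells and their tumours, went the other way, at 37, 1.07, 8.08 and 9.63 CPM in vehicle against 1.02, 1.8, 2.26 and 2.47 CPM in regressing and 1.07, 1.07, 5.43 and 6.05 CPM in terminal combination tumours. Vehicle 2 lay with the regressing tumours, and the log2 difference of -2.88 (SE 0.92, edgeR adjusted p = 0.271) became -1.71 without vehicle 1. Adgrg6, the adhesion receptor needed to begin myelination, was higher in all terminal combination tumours (16.5 to 41.6 CPM) than in any regressing tumour (5.86 to 15.8 CPM), with an edgeR adjusted p of 0.703. Kcna1, a potassium channel gene, and Gfra3, the artemin receptor, were not tested and did not exceed 0.406 and 0.628 CPM.

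Of 10 further repair genes 8 were tested. Runx2, a transcription factor of injured Schwann cells and of bone, stood at 29.8, 40.2, 50.5 and 26.1 CPM in vehicle and at 16.3, 12.3, 21.6 and 11.1 CPM in regressing tumours, with no overlap (log2 difference -1.26, SE 0.32, edgeR adjusted p = 0.236, DESeq2 adjusted p = 0.016). In the terminal combination tumours Runx2 stood at 20.3, 41.9, 19.2 and 29.3 CPM, across both ranges. Jun, the central transcription factor of the repair state, stood at 273, 226, 2071 and 179 CPM in vehicle 1 to 4, between 163 and 188 CPM in the regressing and between 158 and 253 CPM in the terminal combination tumours. Its log2 difference of -1.98 between regressing and vehicle tumours (SE 0.68, adjusted p = 0.282) became -0.37 without vehicle 3. Nrg1, the ligand of ERBB3, stood at 4.6 ± 3.7 CPM (SD, n = 4) in vehicle, 2.76 ± 1.33 (SD, n = 4) in regressing and 2.85 ± 0.565 (SD, n = 4) in terminal combination tumours.

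Markers of tissues that can lie next to a tumour were measured in the same libraries, and edgeR called none of them. All 10 adipocyte markers had a positive log2 difference between regressing and vehicle tumours, 8 of the 10 with groups that did not overlap (3.5% of all genes were apart and higher), and their summed level was 23.9 to 153 CPM in vehicle, 274 to 2313 in regressing and 97.4 to 593 CPM in terminal combination tumours. All 10 skeletal muscle markers had a positive difference as well, with sums of 572 to 9624 CPM in vehicle, 4114 to 56641 in regressing and 2839 to 35226 CPM in terminal combination tumours. DESeq2 called 8 of the adipocyte and 7 of the muscle markers higher in regressing tumours, and no muscle marker was at 0 in any tumour. The muscle sum was highest in regressing 1 (56641 CPM) and was 32219 CPM in regressing 4. Without those 2 libraries the log2 differences between regressing and vehicle tumours were -1.41 for Ncam1, -2.17 for Artn, 1.28 for Mbp and 1.00 for Pmp22, and neither edgeR nor DESeq2 called any of the 26 genes. Host nerve carries Schwann cells and axons but few neuronal cell bodies. Of 10 neuron markers 6 were tested, 2 with a positive and 4 with a negative difference between regressing and vehicle tumours. Of the positive ones 1 had an unadjusted p under 0.05 by edgeR, and none of the 6 was called by DESeq2 or had groups apart. The sums of all 10 were 121 to 569 CPM in vehicle, 91.2 to 424 in regressing and 282 to 1033 CPM in terminal combination tumours. Elavl4 had no count in any tumour and Snap25 did not exceed 0.538 CPM. Nefl ranged from 14.6 to 445 CPM and Stmn2 from 2.57 to 411 CPM across all 3 groups. Of 6 perineurium markers 4 were tested, 2 with a positive and 2 with a negative difference. Both positive ones had groups that did not overlap and an unadjusted p under 0.05, 1 of them was called by DESeq2, 1 of the negative ones had an unadjusted p under 0.05, and the sums of all 6 were 81.1 to 198 CPM in vehicle and 99.8 to 139 CPM in regressing tumours. How much of the Sox10, Mbp and Lgi4 signal came from nerve inside adjacent tissue, and how much from tumour cells, was not tested.

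Melanocytes and cartilage, which share neural crest origin or crest factors, were measured as well. Of 8 melanocyte markers only Mitf and Pmel were tested, Oca2 had no count in any tumour, and Dct did not exceed 0.154 CPM. The sums were 7.0 to 10.5 CPM in vehicle, 11.7 to 30.4 in regressing and 9.48 to 22.9 CPM in terminal combination tumours. Mitf, which is also made outside melanocytes, was the largest term in every tumour but regressing 2, where Tyr stood at 21.8 and Mitf at 7.95 CPM. Of 8 cartilage markers 4 were tested, and 3 of them had a positive difference between regressing and vehicle tumours. Their sums were 8.36 to 58.4 CPM in vehicle and 92.6 to 223 CPM in regressing tumours, in the latter mostly Comp, while Snorc had no count in any tumour. T cell markers, 8 of 8 tested and all with a positive difference, summed to 35.1 to 44.4 CPM in vehicle and 19.7 to 391 CPM in regressing tumours. Keratinocyte markers, of which 3 of 8 were tested, summed to at most 41.3 CPM, in regressing 3. The part of these cells in the lineage genes was not tested.

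**Figure D4:**
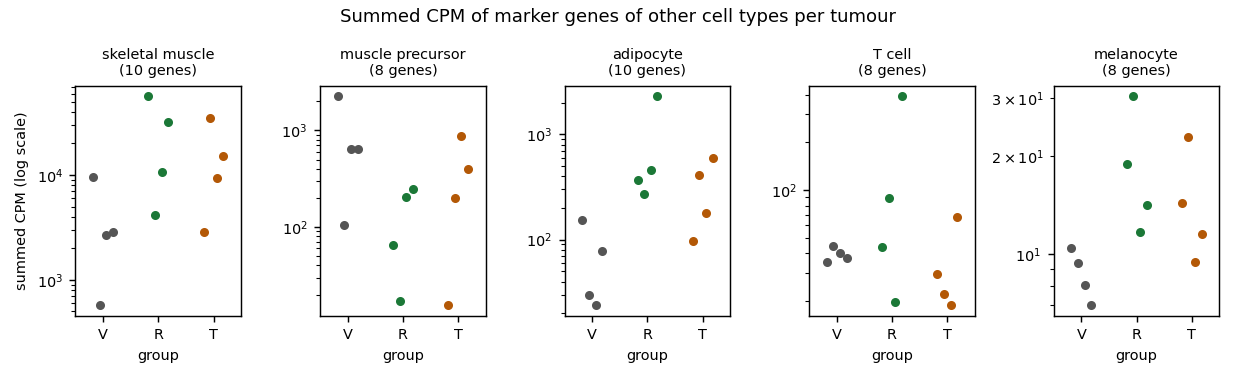
Summed CPM (log axis) of marker genes of skeletal muscle, muscle precursors, adipocytes, T cells and melanocytes in each tumour (points) by group, vehicle (V), regressing (R) and terminal combination (T). Adipocyte sums of all 4 regressing tumours lie above all vehicle sums, muscle sums of 2 regressing tumours reach 32219 and 56641 CPM, and muscle precursor sums are highest in a vehicle tumour.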

How the data were processed

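Bulk RNA-seq libraries of 12 tumours were analysed, 4 per group, grouped by the treatment and harvest labels. Each deposited file pairs Ensembl gene identifiers with unnormalised read counts. Per the labels' protocols, libraries were made with a stranded mRNA kit. HISAT2 2.2.1, Salmon, DESeq2 1.24.0 and the builds mm10 and GRCm38.p6 are named in the submitters' processing notes; the tool that counted, its strand setting and its annotation are not given in the sources used here, so overlapping genes and close paralogs may share reads. Symbols, positions and exon lengths came from GENCODE M21 (GRCm38), which matched 54409 of 54532 identifiers, and promoter sequences from RefSeq (GRCm38.p6).

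Genes were filtered with filterByExpr (minimum count 10, minimum total 15), scaled by TMM and tested with the edgeR 4.0.16 quasi-likelihood model over all 12 libraries (R 4.3.3), with Benjamini-Hochberg adjustment over the 15650 genes tested and a threshold of 0.05. DESeq2 1.42.0 was the alternative. CPM used TMM-scaled library sizes, and RPKM divided them by the summed exon length. Each SE given is the absolute log2 difference divided by the square root of the F statistic of the edgeR test. It is therefore approximate, above all for genes with counts of 0 such as Sox10, Sox2 and Gldn. Steps were tested on simulated data with changes planted between regressing and vehicle libraries. There edgeR called 21% of 2-fold, 58% of 4-fold and 81% of 8-fold changes, and DESeq2 called 37%, 73% and 89%. Of unchanged genes they called 0.0291% and 0.356%. A gene that was not called may therefore still differ between groups. No library pair looked like a duplicate (lowest chi-square per degree of freedom 56.8). The 34 genes and all other gene lists (myelin, Schwann identity, repair, skeletal muscle, muscle precursor, melanocyte, cartilage, neuron, keratinocyte, adipocyte, T cell and perineurium) were chosen with earlier results of these data known.

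Full statistics are given, by rule, for genes called by edgeR or DESeq2, genes whose groups do not overlap, and the 2 of each stage class with the smallest p. Of the other lineage genes the rule takes those called or with groups apart, the 3 of each list with the smallest p between regressing and vehicle tumours, and Erbb3. Some genes that meet this rule are left out of the text. The highest of one group below the lowest of another in CPM counts as not overlapping. Other genes named (Sox2, Tfap2a, Gdnf, Cdh19, Gfap, Shh and the promoters shown) and the genes of the heat map were chosen after their values were seen. Alternatives were RLE scaling, no filter, the title ending FFT as a covariate or its libraries left out, the compared groups fitted alone, regressing 1 and 4 left out, and each library left out. Where libraries were left out or groups fitted alone, the filter was run again, so the tested genes could differ from those of the main run. DESeq2 with libraries left out, and counts of groups apart under each setting, were added after seeing the data.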

Additional observations from a re-analysis of the deposited data

Results flagged for a closer look

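Gfra1, the GDNF receptor subunit, stood at 31.5 CPM in regressing 2, apart from 42.3 to 44.4 CPM in the other 3 regressing tumours. On log2 CPM its gap to the nearest of them was 0.857 of the group's whole range, above Dixon's 95% critical value for 4 samples. It was the only such case among 105 groups checked (35 genes in 3 groups), where chance alone flags about 1 in 20 groups.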

How the results depend on the processing

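EdgeR called none of the 26 tested genes under any alternative run, and at most 1 of all genes (terminal combination against regressing, without terminal combination 4). Of the fitted log2 differences under alternatives, 446 kept their direction and side of the threshold, 7 passed it under DESeq2 in regressing against vehicle tumours (Sox10, Ncam1, Artn, Erbb3, Lgi4 and Runx2 among them), and 2 changed sign, both Egr2 in terminal combination against vehicle tumours: 0.58 without the 4 FFT libraries and 0.082 without vehicle 2 (-1.93 to 0.082 with each library left out). DESeq2 called 483, 14 and 51 of all genes, and 3, 0 and 0 of the 26. Counts below are of the listed genes that passed the filter in each run, 26 in the main run. They are at an unadjusted p under 0.05 or with groups apart. Without the filter, all listed genes with any count were included.

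For regressing against vehicle tumours, p gave 5 higher and 7 lower. Lower genes were 4 without the FFT libraries and 2 without regressing 1 and 4; higher genes were 3 with the groups fitted alone, where Sox10 failed the filter. Groups apart were 3 higher and 2 lower, with 1 lower without the filter, 5 lower without FFT libraries and 6 higher without regressing 1 and 4 (6.95% of all genes with fewer tumours), where DESeq2 called 0. Leaving out each library gave 3 to 5 higher and 3 to 8 lower by p, 3 to 5 higher and 2 to 4 lower apart, and 0 to 6 DESeq2 calls.

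For terminal combination against vehicle, p gave 2 higher and 0 lower, 4 higher without the filter, 1 higher with the groups alone and 1 lower by DESeq2; 3 were apart and higher without FFT libraries. Leaving out each library gave 2 to 4 higher, 0 to 1 lower, 0 to 1 apart and 0 to 1 DESeq2 calls.

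For terminal combination against regressing, p gave 1 higher and 1 lower. Higher genes were 3 without the filter, 2 without FFT libraries, 6 with the groups alone, 4 by DESeq2 and 0 without regressing 1 and 4; lower genes were 0 without FFT libraries, with the groups alone and without regressing 1 and 4. Apart were 2 higher and 1 lower without FFT libraries, and 1 higher and 1 lower without regressing 1 and 4. Leaving out each library gave 0 to 3 higher and 0 to 1 lower by p, 0 to 2 higher and 0 to 1 lower apart, and 0 to 1 DESeq2 calls. The cause of these moves was not tested, except that settings with libraries removed have fewer samples. No paired analysis was possible because the labels give no replicate numbers shared between groups.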

Other observations

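Tyr, the tyrosinase gene of pigment cells, had 18, 375, 12 and 1 counts in regressing 1 to 4 (1.15, 21.8, 0.532 and 0.0771 CPM) and no count in any vehicle or terminal combination tumour. In regressing 2, where Tyr was highest, Dct, Tyrp1, Mlana and Slc45a2 had no count. In regressing 1 Tyrp1 had 3 counts, the only ones in any tumour, and Mlana had 6 counts, its highest. Regressing 2 also held all 8 Shh counts. Tyr was chosen after its values were seen, and it was too low to pass the filter on low counts.

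Summed over the lists, the 9 myelin structure genes stood at 93.2 to 261 CPM in vehicle, 190 to 230 in regressing and 112 to 236 CPM in terminal combination tumours, with Pmp22 and Cnp giving most of it. The 5 precursor genes summed to 328 to 412 CPM in vehicle, 64.9 to 205 in regressing and 88.3 to 765 CPM in terminal combination tumours. Nes and Cdh2 gave most of that sum. In vehicle 2 it was made up mostly of Cdh2 at 177, Nes at 130 and Sox2 at 72.8 CPM. The mean log2 CPM of the 5 genes overlapped between the groups, at 1.10 to 3.56 in vehicle and 0.645 to 2.40 in regressing tumours. The 6 adhesion and non-myelinating genes summed to 118 to 301 CPM, 63.4 to 97.0 and 131 to 146 CPM.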
